A study of Homo sapiens with 4 samples.

Results

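Small nuclear RNA (snRNA) genes were examined in CUT&Tag peak lists for the transcription factors ETS1 and RUNX1 in 6T-CEM, a cell line of human T-cell acute lymphoblastic leukaemia (labelled T-ALL). CUT&Tag tethers the transposase Tn5 to an antibody, so that DNA near the bound protein is cut, tagged and sequenced. ETS1 gave the ETS family its name, and RUNX1 binds DNA and helps direct the formation of blood and T cells. The members were all genes of biotype snRNA in the RefSeq gene table of hg38 on chromosomes 1 to 22 and X, 149 of 58419 genes. The set was chosen by the peaks near these genes in an earlier look at the same lists. Another 7 snRNA entries that the table lists by scaffold coordinates were left out.

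The ETS1 group and the RUNX1 group each held 2 libraries, numbered 1 and 2, and the labels name no treatment, time or genetic change for either. Peaks of each library had been called against IgG, the antibody control. The ETS1 libraries listed 6082 and 5625 peaks and the RUNX1 libraries 25360 and 25001. The labels do not say whether an antibody's libraries came from separate cultures, so each spread (SD, n = 2) measures the difference between these libraries, which may be technical. Read totals are not in the lists, so depth is unknown. The line is a single leukaemic line, and peak lists measure no expression. The gene ends of T-cell genes carried RUNX1 regions at 7 of 7 genes, CD3E and LCK among them, and ETS1 regions at 5. Of 3 B-cell genes and 4 non-blood genes none had a region of either factor, and of 3 myeloid genes only MPO had one, of RUNX1. Among all protein-coding genes, 47.2% had a RUNX1 region and 19.0% an ETS1 region within 1 kb of an end. The marker sets are small, so their counts describe these genes only.

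snRNAs are short, non-coding RNAs of the nucleus. U1 pairs with the 5′ splice site and U2 with the branch point of introns, and U4, U5 and U6 complete the major spliceosome. U11, U12, U4atac and U6atac do the corresponding work in the minor spliceosome, U7 directs the 3′-end processing of histone mRNAs, and 7SK holds the elongation kinase P-TEFb inactive. RNA polymerase II makes most of them, while RNA polymerase III makes U6, U6atac and 7SK. Both kinds of promoter share a proximal element bound by the SNAPc complex and a distal element that often holds an octamer for the factor Oct-1. Most snRNAs come from several near-identical gene copies. Reads from such copies cannot be placed with confidence, and how multiply mapped reads were treated is not given in the sources, so values at RNU1, RNVU1, RNU2 and RNU6 copies and at the LOC genes beside RNU2-1 are uncertain.

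A region was the union of touching peaks that held a peak of both libraries of an antibody, and it was counted for a gene when it touched the gene or the 1 kb on either side. Since the choice used the peaks, counts and folds are given as a description, with no test. ETS1 regions lay at 30 of 149 snRNA genes, beside 19.0% of protein-coding genes with one within 1 kb of an end. RUNX1 regions lay at 39 of 149 snRNA genes, beside 47.2% of protein-coding genes. These are 20.1% and 26.2% of snRNA genes, so over the whole biotype ETS1 stood near and RUNX1 below the protein-coding share. The stretches searched differ, however. Each protein-coding gene was searched 1 kb around both of its ends, a longer stretch than an snRNA gene and the 1 kb on either side. How the shares compare over equal stretches was not tested. Over all RefSeq genes the shares were 8.83% for ETS1, 23.3% for RUNX1 and 8.69% for both. All 30 genes with ETS1 also had RUNX1, while 9 had RUNX1 without ETS1 and 110 had neither. Single libraries gave 31 and 32 genes for ETS1 and 40 genes each for RUNX1.

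The counts differed by type. Of the 42 genes with an RNU, RNVU1 or RN7SK symbol, 21 had ETS1 and 28 had RUNX1. Of the 79 genes named only by a LOC number, 9 had ETS1 and 11 had RUNX1. None of the 28 SNAR genes, which share the biotype but encode small NF90-associated RNAs, had a region of either factor or a peak within 1 kb in any of the 4 libraries. Most SNAR genes are numbered copies in clusters on chromosome 19, where reads may also be hard to place, so this absence is uncertain. Within the first set, the 17 variant U1 genes (RNVU1) held 10 of the 14 genes without any region. Without them, 17 of 25 RNU and RN7SK genes had ETS1 and 21 of 25 had RUNX1.

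**Figure D1:**
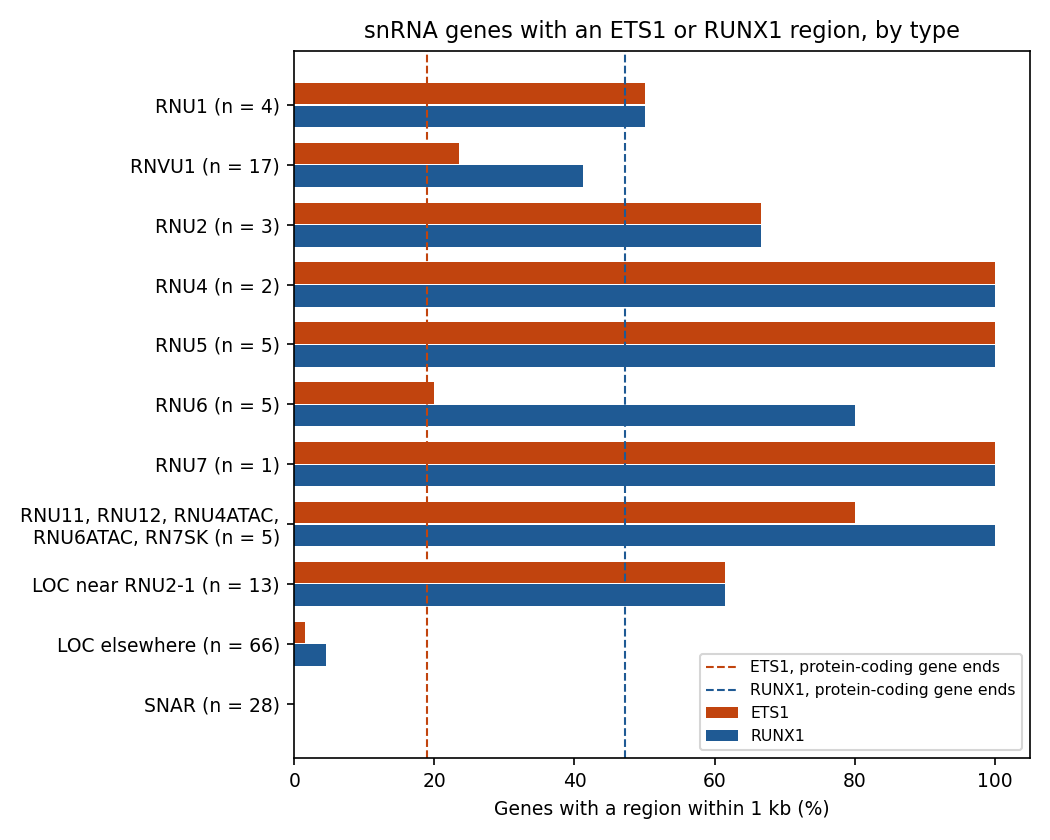
Share of snRNA genes (x axis, %) with a region of ETS1 (upper, red bars) or RUNX1 (lower, blue bars) within 1 kb, by type (y axis, number of genes in brackets). Dashed lines give the shares of protein-coding genes with a region within 1 kb of an end, 19.0% for ETS1 and 47.2% for RUNX1. Both ends of a protein-coding gene were searched, a longer stretch than for an snRNA gene. RNU4, RNU5 and RNU7 stand at 100% for both, and SNAR at 0.

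By the polymerase that transcribes them, a grouping chosen after the values were seen, ETS1 lay at 15 and RUNX1 at 15 of the 18 polymerase II genes outside RNVU1 (RNU1, RNU2, RNU4, RNU5, RNU7, RNU11, RNU12 and RNU4ATAC). Of the 7 polymerase III genes (RNU6, RNU6ATAC and RN7SK), 2 had ETS1 and 6 had RUNX1. This grouping leaves out the 17 RNVU1 genes, copies of a polymerase II type, with ETS1 at 4 and RUNX1 at 7, and the 28 SNAR genes, also polymerase III transcripts, with neither. The 3 polymerase II genes outside RNVU1 without a region were RNU1-3, RNU1-4 and RNU2-63P.

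Most snRNA genes lie away from the ends of coding genes and were looked at apart, although some of them lie inside coding genes. Their regions are not all apart from coding promoters. RNU4-1, 1313 bp from an end of SIRT4, is among these genes, yet its regions, shared with RNU4-2, cover the SIRT4 promoter window. In all, 138 genes were more than 1 kb from any protein-coding gene end, of which 24 had ETS1 and 30 had RUNX1. Of these, 9 with each factor are RNU2-1 and LOC genes beside it on chromosome 17, and without that cluster, left out after the values were seen, 15 separate genes had ETS1 and 21 had RUNX1. The 11 remaining genes had ETS1 at 6 and RUNX1 at 9. For other short RNA genes wherever they lie, ETS1 and RUNX1 were at 14.7% and 29.8% of tRNA genes, 2.86% and 5.63% of snoRNA genes, and 5.44% and 12.7% of miRNA genes. Among those more than 1 kb from a coding end, ETS1 lay at 8.56% of tRNA, 1.53% of snoRNA and 2.43% of miRNA genes, and RUNX1 at 22.5%, 3.79% and 8.28%. The separate snRNA genes stood at 17.4% for ETS1 and 21.7% for RUNX1, near the tRNA genes for RUNX1, with the chromosome 17 cluster included. The separate RNU and RNVU1 genes stood higher, with ETS1 at 15 of 34 and RUNX1 at 20 of 34. Just inside the limit for a separate gene was LOC124904122, 1119 bp from a coding end, and just outside it LOC124900516, at 547 bp. For the 1 kb window, the farthest region that counted was at RNU5F-1, 628 bp away for ETS1 and 589 bp for RUNX1. The nearest that did not count were 2842 bp away for ETS1 (LOC124904143) and 1475 bp for RUNX1 (RNU6-8).

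The folds over IgG, the authors' own values at each summit, were high at snRNA genes within both kinds of list. The median was 11.8 over the 30 genes with ETS1 and 23.2 over the 39 genes with RUNX1. Counting each distinct region once, the median was 11.2 over 32 ETS1 regions at snRNA genes, beside 5.82 over 3099 ETS1 regions at protein-coding gene ends. For RUNX1 it was 22.2 over 44 regions at snRNA genes, beside 8.15 over 8681 at protein-coding gene ends. The middle snRNA region thus had a higher fold than 90.5% of all ETS1 regions and 88.4% of all RUNX1 regions.

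The deposited fold and −log10 p of a peak together give the pileup, the number of fragments stacked at its summit, and the number expected from IgG. The median pileup was 58.8 at snRNA regions and 60.5 at coding gene ends for ETS1, and 113.8 and 97 for RUNX1. The median IgG expectation was 3.84 at snRNA regions, against 9.52 at coding gene ends, for ETS1, and 4.68 against 10.8 for RUNX1. The high folds at snRNA genes therefore stand beside a low IgG expectation and, for ETS1, a pileup like that of coding gene ends. Outside RNU2-1 and the LOC genes beside it, the median pileups were 63 for ETS1 and 118.5 for RUNX1 and the median IgG expectations 4.15 and 4.87. What sets the low expectation was not tested.

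**Figure D2:**
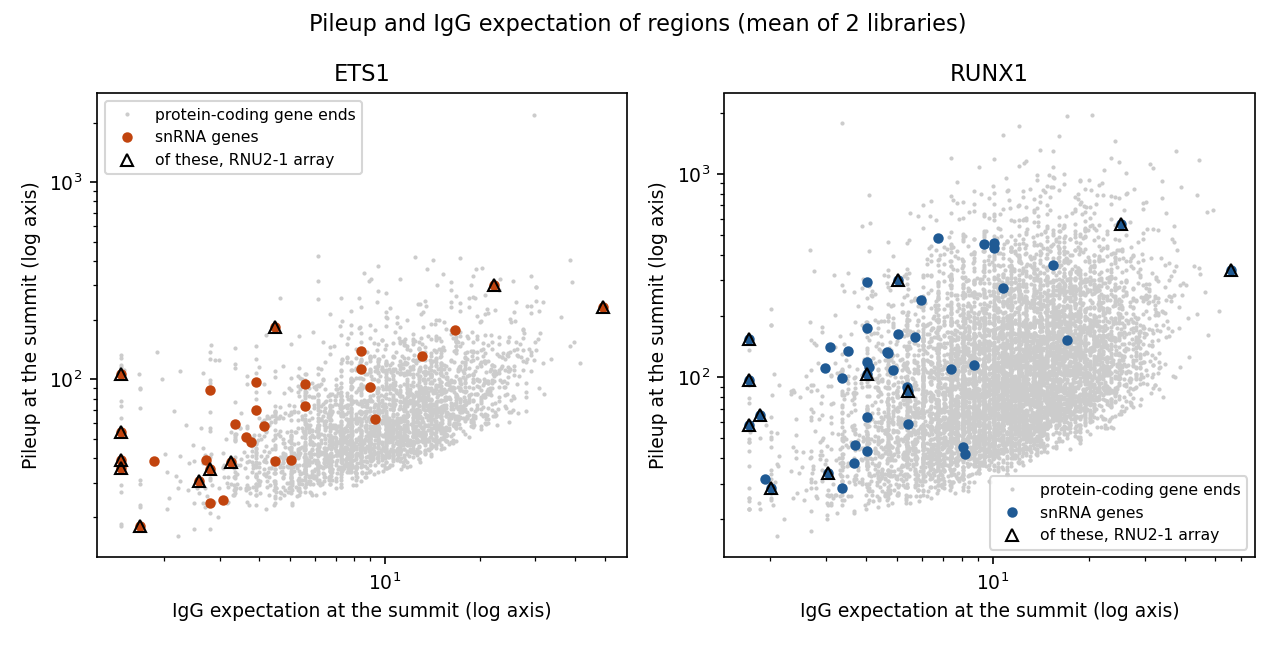
Pileup at the summit (y axis, log scale) against the number expected from IgG (x axis, log scale), one point per region as the mean of 2 libraries, for ETS1 (left) and RUNX1 (right). Grey points are regions at protein-coding gene ends, coloured points regions at snRNA genes and open triangles those of RNU2-1 and the LOC genes beside it. The snRNA regions lie mostly towards the low side of the grey cloud. Their median expectation was 3.84 for ETS1 and 4.68 for RUNX1, against 9.52 and 10.8 at coding gene ends. Their highest expectations, 49.3 and 55.8 in the RNU2-1 cluster, exceed the highest at coding gene ends, 41.5 and 51.3.

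Among the U1 genes, RNU1-1 (chr1:16514122-16514285) and RNU1-2 (chr1:16895980-16896143) carried both factors. RNU1-2 had ETS1 folds of 14.4 and 15.5 (mean 14.96 ± 0.816, SD, n = 2) and RUNX1 folds of 41.9 and 45.4 (mean 43.6). RNU1-1 had ETS1 folds of 11.4 and 8.998 and RUNX1 folds of 40.7 and 37.9. Values of the 2 genes overlapped for neither factor. At the other two, RNU1-3 and RNU1-4, no library had a peak within 1 kb, and the nearest RUNX1 peaks were 9741 and 9747 bp from RNU1-3 and 11471 bp from RNU1-4 in both libraries.

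The variant U1 genes, all on chromosome 1, had regions at 7 of 17. RNVU1-30 was the highest for ETS1, with folds of 9.15 and 11.98, and had RUNX1 folds of 23.6 and 23.9. RNVU1-19 had ETS1 folds of 6.54 and 6.70 and RUNX1 folds of 21.9 and 25.6. RNVU1-27 (ETS1 6.30 ± 1.03, RUNX1 22.6 ± 3.63) and RNVU1-7 (ETS1 7.18 ± 0.793, RUNX1 14.3 ± 0.234) also carried both. RNVU1-6, RNVU1-3 and RNVU1-4 had RUNX1 without ETS1, with mean folds of 8.37, 6.76 and 5.13, the lowest of the type. All 7 had lower RUNX1 folds than RNU1-1 and RNU1-2 in every library. A LOC gene of the length of U1, LOC124904613 (chr1:146376807-146376970, 164 bp, 32042 bp from the nearest coding end), exceeded them all: its ETS1 folds were 23.7 and 23.1 and its RUNX1 folds 56.7 and 61.2.

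For U2, RNU2-2 (chr11:62841619-62841809), which lies within the gene WDR74 at its end (0 bp from it), had the highest RUNX1 fold of all snRNA genes. Its RUNX1 folds were 64.9 and 61.0 (63.0 ± 2.70), above 98.96% of RUNX1 regions, and its ETS1 folds 14.6 and 14.5. The summits of both factors lay 687 to 695 bp from the gene, 4 bp apart on average. A second, weaker pair of regions lay on its other side, with ETS1 folds of 6.37 and 6.53 and RUNX1 folds of 9.54 and 10.8. RNU2-1 (chr17:43233790-43233977) was far lower, with ETS1 folds of 6.90 and 7.29 and RUNX1 folds of 9.78 in both libraries. RNU2-63P had no region.

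RNU2-1 is the first of 14 snRNA genes of 188 to 192 bp within 134.3 kb of chromosome 17, where the other 13 have LOC numbers. Of those 13, 8 had both factors and 5 had neither. Within this stretch and 5 kb on either side lay 13 ETS1 and 16 RUNX1 regions, of which 11 of each factor were at these snRNA genes. The strongest of the rest, 127.2 kb from the start of RNU2-1, had ETS1 folds of 14.1 and 15.3 and RUNX1 folds of 27.7 and 31.5. The shared region between LOC124904135 and LOC124904136 had the highest ETS1 folds of any snRNA gene, 47.4 and 39.3, with RUNX1 folds of 57.9 and 55.8. LOC124904142 followed with ETS1 folds of 36.6 and 31.0 and RUNX1 folds of 49.7 and 50.1. LOC124904144 had 22.1 and 22.6 for ETS1 and 36.9 and 35.2 for RUNX1. Mean folds at LOC124904145 were 14.8 (ETS1) and 21.9 (RUNX1), at LOC124904138 13.2 and 21.6, at LOC124904147 9.46 and 20.7, and at LOC124904137 8.78 and 8.65.

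The ratio behind these folds varied widely along the cluster. At LOC124904135, LOC124904145 and LOC124904144 the IgG expectation was at its lowest in the lists, 1.53 and 1.39 in the ETS1 libraries, with ETS1 pileups of 119 and 93 at LOC124904135. At a weak region beside LOC124904137 the expectation was 51.5 and 47.1 and the ETS1 pileup 244 and 222, for folds of 4.67 and 4.63, with RUNX1 folds of 6.17 and 5.78 there. LOC124904147 also had a weaker region of each factor on its upper-coordinate side, with ETS1 folds of 8.81 and 9.63 and RUNX1 folds of 11.5 and 16.6. In 8 of the 9 occupied genes of the cluster, the summits of the strongest region of both factors lay on the lower-coordinate side, 121 to 608 bp from the gene. The exception, LOC124904135, shares its strongest region with LOC124904136, and its own region on the lower-coordinate side had ETS1 folds of 16.99 and 15.5 and RUNX1 folds of 22.2 and 24.0. No region touched LOC124904139, LOC124904140, LOC124904146, LOC124904141 or LOC124904143 or the 1 kb around them, although LOC124904141 had a RUNX1 peak of 5.99-fold in library 2 alone.

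**Figure D3:**
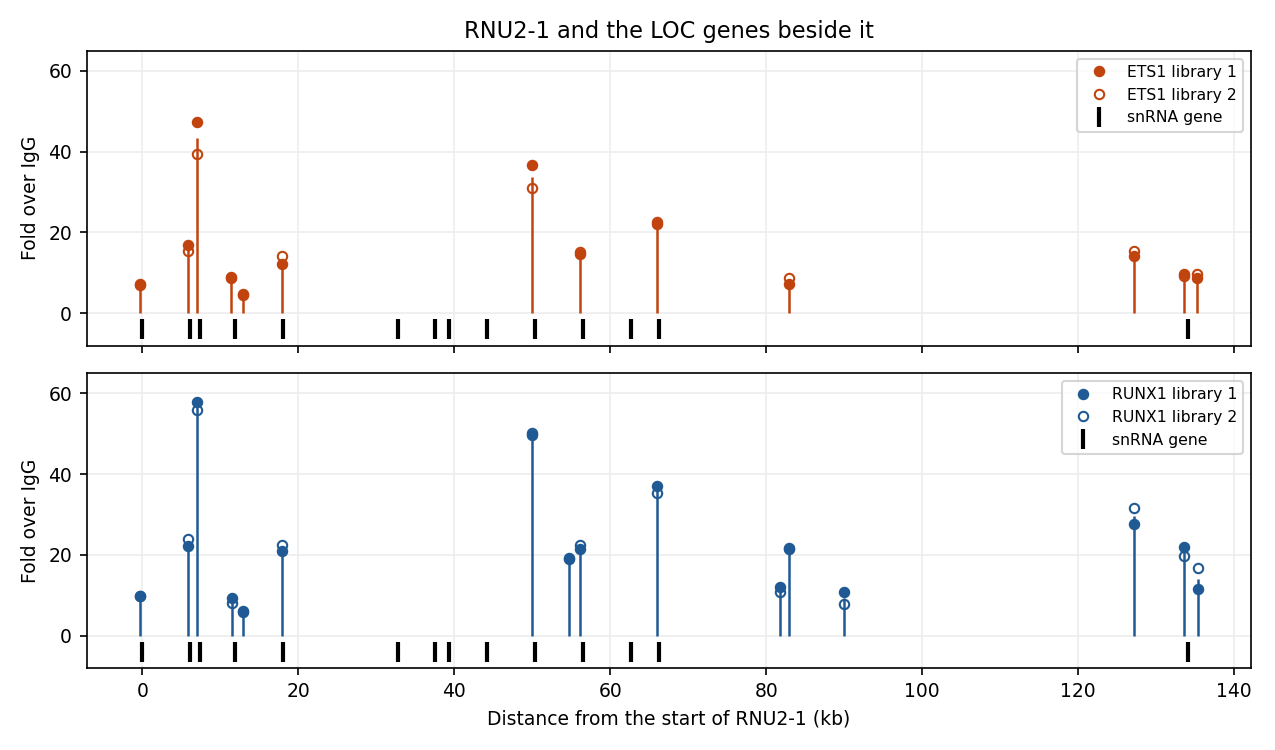
Fold over IgG (y axis) of ETS1 regions (top) and RUNX1 regions (bottom) against the distance from the start of RNU2-1 in kb (x axis); filled and open circles are libraries 1 and 2, lines reach their mean, and black ticks mark snRNA genes. The 4 neighbouring genes at 32.8 to 44.2 kb carry no region, while the highest folds, 47.4 for ETS1 and 57.9 for RUNX1, lie beside the gene at 7.39 kb.

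Both U4 genes, RNU4-2 (chr12:120291759-120291903) and RNU4-1 (chr12:120293093-120293237), shared a single region of each factor within 1 kb, so they count as 1 measurement. The ETS1 folds were 15.1 and 13.7 and the RUNX1 folds 29.6 and 30.8. The summits lay on the lower-coordinate side of RNU4-2, at 885 bp for ETS1 and at 585 and 634 bp for RUNX1. The RefSeq promoter window (GRCh38.p14, 250 bases before to 50 after the start) of SIRT4 lies inside this region, 36 bp from RNU4-2. It is shown because it begins just beside RNU4-2, on the upper-coordinate side, and it holds no summit. Capitals mark the octamer ATGCAAAT, at base 187 from the 5′ end.
SIRT4, chr12:120291939-120292238, plus strand: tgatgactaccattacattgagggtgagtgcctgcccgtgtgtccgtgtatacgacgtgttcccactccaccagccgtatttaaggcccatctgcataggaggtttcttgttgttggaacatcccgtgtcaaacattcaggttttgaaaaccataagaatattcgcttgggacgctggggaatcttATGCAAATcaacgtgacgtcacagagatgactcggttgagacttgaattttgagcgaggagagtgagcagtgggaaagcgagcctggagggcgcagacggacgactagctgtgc

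All 5 U5 genes carried both factors, and all 5 were more than 1 kb from a coding end. RNU5A-1 (chr15:65296051-65296167) had ETS1 folds of 13.5 and 14.2 and RNU5D-1 (chr1:44731069-44731170) of 13.9 and 13.7. RNU5F-1 followed with 11.97 and 10.5, RNU5B-1 with 10.7 and 10.9, and RNU5E-1 with 9.17 and 9.41. The RUNX1 folds were highest at RNU5B-1 (35.6 and 33.6) and lowest at RNU5D-1 (22.5 and 23.6) and RNU5F-1 (23.9 and 22.6), whose values overlap. At RNU5A-1 the RUNX1 folds of 23.04 and 33.1 differed between libraries, while the pileups were 165 and 162 and the IgG expectations 6.20 and 3.93. RNU5D-1 and RNU5E-1 had RUNX1 regions on both sides. The weaker one at RNU5D-1 had folds of 11.7 and 10.4. RNU5E-1 had folds of 26.6 and 29.7 at a summit 2572 and 2575 bp away, and of 24.7 and 22.4 in the region on the side of the ETS1 summit.

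Of the 5 U6 genes, 4 had RUNX1 and only RNU6-2 had ETS1. That is 20% for ETS1, beside 19.0% of protein-coding genes, and 35.3% of RUNX1 regions at coding gene ends held ETS1. In RNU1, RNU2, RNU4 and RNU5 every gene with RUNX1 also had ETS1, but all these types have few genes. RNU6-2 (chr19:1021522-1021628), 399 bp from TMEM259, had ETS1 folds of 11.03 and 11.9 and RUNX1 folds of 19.99 and 17.4. The summits of all 4 libraries fell on the same base, 289 bp from the gene. RNU6-9 (chr19:893484-893590), 297 bp from MED16, had RUNX1 folds of 12.2 and 13.4. RNU6-1 had RUNX1 folds of 7.73 and 11.96, and an ETS1 peak of 5.49-fold in library 2 alone. RNU6-7 was the lowest snRNA gene with a region, with RUNX1 folds of 4.96 and 4.37. RNU6-8 had a RUNX1 peak of 3.79-fold in library 1 alone.

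The promoter windows of the coding genes next to RNU6-2 and RNU6-9 are shown because one holds the common summit and the other ends 47 bp from the U6 gene. In the TMEM259 window no letters are in capitals, since none of the searched motifs occurs in it. In the MED16 window capitals mark the octamer at base 171 and, at base 53, TATAAA on the opposite strand. The RUNX1 region of RNU6-9 overlaps only part of the MED16 window. Both marked motifs lie outside that region, and the window holds no summit.
TMEM259, chr19:1021074-1021373, minus strand: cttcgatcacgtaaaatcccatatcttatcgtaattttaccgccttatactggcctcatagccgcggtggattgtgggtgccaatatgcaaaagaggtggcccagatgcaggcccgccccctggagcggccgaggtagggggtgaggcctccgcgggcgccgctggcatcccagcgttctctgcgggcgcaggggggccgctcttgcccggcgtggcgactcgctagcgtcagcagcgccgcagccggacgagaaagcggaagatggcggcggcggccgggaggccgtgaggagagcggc
MED16, chr19:893138-893437, minus strand: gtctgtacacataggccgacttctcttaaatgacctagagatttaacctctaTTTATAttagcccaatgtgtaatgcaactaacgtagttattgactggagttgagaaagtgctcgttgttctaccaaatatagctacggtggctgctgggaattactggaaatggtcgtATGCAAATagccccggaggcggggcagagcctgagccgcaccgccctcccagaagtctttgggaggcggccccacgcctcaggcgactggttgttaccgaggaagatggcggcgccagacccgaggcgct

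The minor spliceosome genes all carried both factors. RNU11 (chr1:28648600-28648734, 331 bp from TAF12) had the highest ETS1 fold outside the LOC genes, 19.6 and 20.2, with RUNX1 folds of 35.0 and 34.5. RNU12 (chr22:42615244-42615393, 361 bp from POLDIP3) had ETS1 folds of 11.97 and 12.3 and RUNX1 folds of 40.7 and 41.8. The summits of both factors at RNU12 lay 194 to 195 bp from the gene, on its upper-coordinate side. RNU6ATAC (chr9:134164439-134164564) had ETS1 folds of 11.02 and 11.4 and RUNX1 folds of 26.4 and 21.2. RNU4ATAC (chr2:121530880-121531009), inside CLASP1 and 118453 bp from its nearest coding end, had RUNX1 folds of 35.0 and 34.4. Its ETS1 folds of 10.5 and 4.38 had the largest SD relative to their mean of all snRNA genes, 57.9%. The ETS1 pileups there were 64 and 62, but the summits lay 396 bp from the upper-coordinate and 191 bp from the lower-coordinate edge of the gene, where the IgG expectations were 5.22 and 13.4.

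The promoter window of POLDIP3, 111 bp from RNU12, is shown because it overlaps the regions of both factors and holds the ETS core CCGGAA, in capitals, on both strands (bases 140 and 193). It lies on the lower-coordinate side of RNU12, across the gene from the summits, and holds no summit of either factor.
POLDIP3, chr22:42614834-42615133, minus strand: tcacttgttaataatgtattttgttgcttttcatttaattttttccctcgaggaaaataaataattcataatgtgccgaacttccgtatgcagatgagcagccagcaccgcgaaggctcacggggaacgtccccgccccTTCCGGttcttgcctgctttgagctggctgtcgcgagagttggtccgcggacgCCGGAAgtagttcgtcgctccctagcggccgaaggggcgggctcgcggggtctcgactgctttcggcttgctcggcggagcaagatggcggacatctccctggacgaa

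The U7 gene RNU7-1 (chr12:6943816-6943878) lies within C12orf57, whose promoter window contains all 63 bases of it. ETS1 folds were 9.68 and 9.02 and RUNX1 folds 22.7 and 20.5, with summits 496 to 502 bp (ETS1) and 346 to 347 bp (RUNX1) beyond the gene. Another RUNX1 region on its other side had folds of 14.2 and 12.1. The window is shown because it holds an snRNA gene whole; capitals mark the gene, and a CCGGAA at base 95 lies within it. Outside the gene, in lower case, the opposite strand holds CCGGAA at base 227 and TATAAA at base 10. The TATAAA lies outside the regions of both factors, and the CCGGAA within the gene lies outside the ETS1 region. The window holds no summit.
C12orf57, chr12:6943772-6944071, plus strand: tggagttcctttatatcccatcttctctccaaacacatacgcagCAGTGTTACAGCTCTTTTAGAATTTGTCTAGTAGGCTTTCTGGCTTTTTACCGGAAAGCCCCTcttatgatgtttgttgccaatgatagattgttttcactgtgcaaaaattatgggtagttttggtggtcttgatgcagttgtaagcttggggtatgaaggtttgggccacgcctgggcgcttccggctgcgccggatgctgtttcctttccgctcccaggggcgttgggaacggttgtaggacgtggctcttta

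RN7SK (chr6:52995620-52995951), the 7SK gene, lies 336 bp from GSTA4. Its RUNX1 folds of 8.17 and 8.82 were low among snRNA genes, but their mean exceeded 52.1% of all RUNX1 regions. RN7SK had no ETS1 region, although ETS1 library 1 alone had a peak of 3.22-fold over the gene. It was the only snRNA gene with a RUNX1 summit inside it. Its RUNX1 pileups of 148 and 158 were above the snRNA median, and its mean IgG expectation of 17.1 was the highest of the strongest RUNX1 regions outside the RNU2-1 cluster. Among 10 other polymerase III genes, 2 had both factors: RMRP and RPPH1. ETS1 folds were 5.19 and 4.41 and RUNX1 folds 13.1 and 11.5 at RMRP, the RNA of RNase MRP. RPPH1, the RNA of RNase P, had ETS1 folds of 6.46 and 6.12 and RUNX1 folds of 12.7 and 12.98. RMRP lies 273 bp and RPPH1 224 bp from a coding gene end. The 4 Y RNA and 4 vault RNA genes, all more than 1 kb from a coding end, had neither factor.

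**Figure D4:**
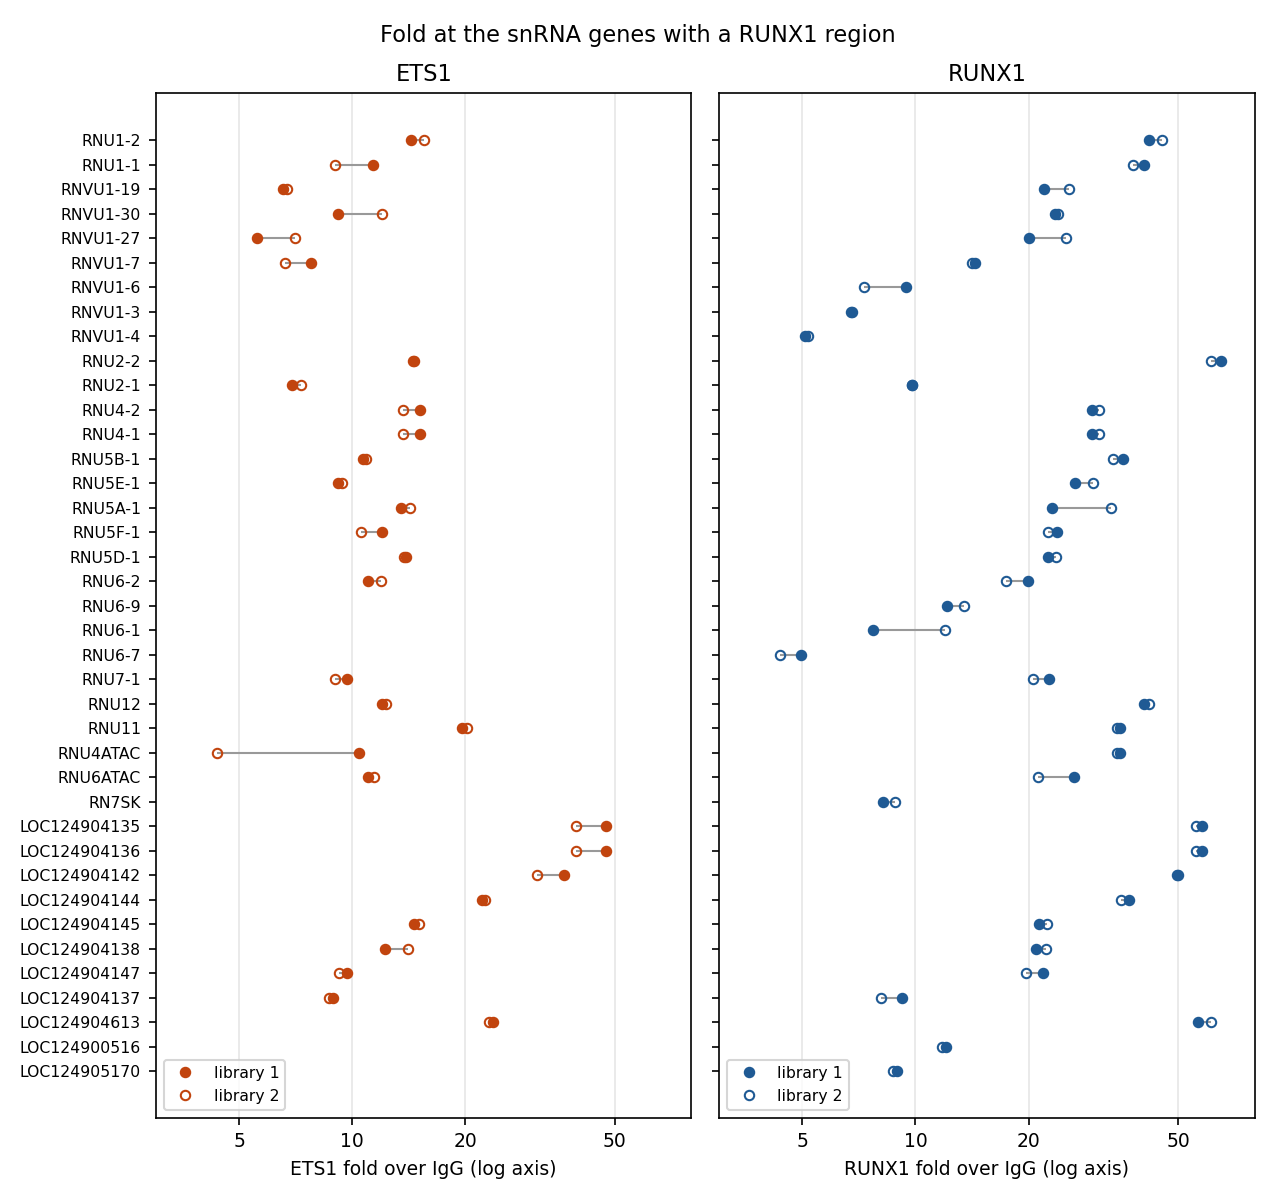
Fold over IgG (x axes, log scale) for ETS1 (left) and RUNX1 (right) at the 39 snRNA genes with a RUNX1 region (y axis); filled and open circles are libraries 1 and 2, joined by a line. A missing ETS1 point means no ETS1 region; RUNX1 is lowest at RNU6-7 (4.96 and 4.37) and highest at RNU2-2 (64.9 and 61.0), and the ETS1 values at RNU4ATAC (10.5 and 4.38) lie farthest apart on the log axis.

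Only 3 of the 66 LOC genes away from RNU2-1 had a region. Besides LOC124904613, they were LOC124900516 (RUNX1 12.05 and 11.8), within 1 kb of ACTR1B, and LOC124905170 (RUNX1 8.96 and 8.72), inside RSPH14. LOC124900516 also had an ETS1 peak of 3.76-fold in library 2 alone.

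Summits mostly lay beside snRNA genes. These genes, 60 to 332 bp long where a region was found, are short beside the 1 kb searched on either side. Few summits inside them would thus be met wherever summits lay. The regions shared by RNU4-1 and RNU4-2, and by LOC124904135 and LOC124904136, count for each gene. The strongest region of a gene had its ETS1 summit a median of 406 bp and its RUNX1 summit a median of 435 bp from the nearer gene edge. Within 200 to 700 bp, a large part of the searched stretch, lay 19 of 30 ETS1 and 23 of 39 RUNX1 summits. No ETS1 summit fell inside a gene. The regions themselves reached the gene at 16 of 30 genes for ETS1 and 21 of 39 for RUNX1. Since the gene table gives no strand, these distances do not say which side is upstream.

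**Figure D5:**
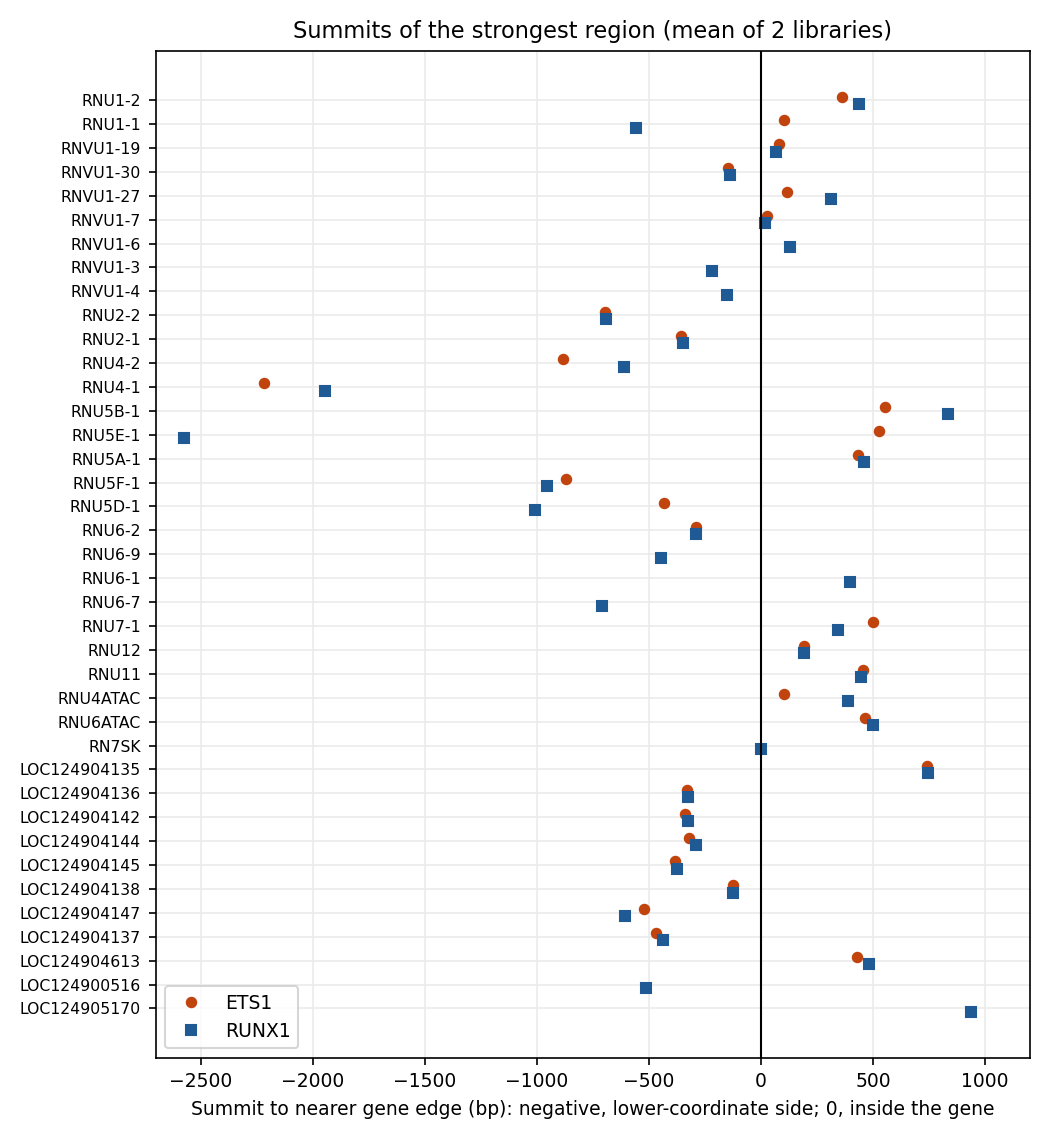
Position of the ETS1 (circles) and RUNX1 (squares) summit of the strongest region (x axis, bp from the nearer gene edge, mean of 2 libraries) at each snRNA gene (y axis). Negative values are on the lower-coordinate side and 0 is inside the gene; both summits lie within 100 bp of each other at 21 of 30 genes, and the 2 farthest RUNX1 summits belong to RNU5E-1 and RNU4-1.

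Where a gene had both factors, the median distance between their summits was 45 bp, and 21 of 30 genes had them within 100 bp. Between libraries of an antibody the median shift was 4.5 bp for ETS1 and 7 bp for RUNX1. The SD of the fold between libraries was a median of 4.46% of its mean for ETS1 and 4.16% for RUNX1. ETS1 was present at 32 of the 44 RUNX1 regions at snRNA genes (72.7%), beside 35.3% of 8670 RUNX1 regions at coding gene ends. The snRNA regions had high RUNX1 folds, with 31 of 44 in the top 3 deciles of all RUNX1 regions. Coding gene-end regions of the same deciles of fold held ETS1 in 58.8%. Without the RNU2-1 cluster, the snRNA share was 63.6% (21 of 33) beside 58.7%. These 2 comparisons were added after the values were seen.

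Across 9 RefSeq promoter windows that overlap the RUNX1 region of an snRNA gene within 1 kb of it, 4 motifs were searched on both strands. The ETS core CCGGAA was in 5 of 9 windows and in 17.2% of all 35116 windows. The ACTR1B and GSTA4 windows hold it at genes without an ETS1 region. The TMEM259 window, with the ETS1 summits of RNU6-2, lacks it. The octamer ATGCAAAT was in 2, at RNU4-2 and RNU6-9, and in 1.77% of all windows. At RNU6-9 the octamer and the TATA letters lie beyond the edge of the RUNX1 region, as do the TATA letters at RNU7-1. The TATA letters TATAAA were in 2 and in 11.5% of all windows, and the RUNX core TGTGGT was in none and in 13.1% of all windows. These windows belong to the coding and lncRNA neighbours, overlap each other at RNU12, and are few; a match describes letters only.

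The protein genes that make and use snRNAs were looked up in lists chosen with earlier results known. Of 76 such genes, 28 had ETS1 and 56 had RUNX1 at an end (36.8% and 73.7%), beside 19.0% and 47.2% of all protein-coding genes. Of 12 factors of snRNA promoters, 2 had ETS1 and 8 RUNX1. SNAPC3, a SNAPc subunit, had 44.7 ± 3.55-fold RUNX1, SNAPC2 had 10.2 ± 0.301-fold ETS1 and 25.01 ± 1.74-fold RUNX1, and SP1 11.3 ± 0.342 and 19.5 ± 1.35. Of 18 genes of Integrator, which cleaves nascent snRNAs, and of the little elongation complex, 9 had ETS1 and 16 RUNX1. ELL led both, with 8.40 ± 0.0589 and 31.7 ± 3.10, INTS11, the catalytic subunit of Integrator, had 6.85 ± 0.626 and 14.1 ± 1.63, INTS9 had 6.18 ± 0.332-fold ETS1, and INTS1 had 21.6 ± 0.262-fold RUNX1.

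Of 22 genes of Sm, LSm and other snRNP proteins, 8 had ETS1 and 15 RUNX1. SNRPA, which encodes the U1 protein A, led with 11.5 ± 0.160-fold ETS1 and 25.2 ± 1.02-fold RUNX1, and SNRNP70, another U1 protein gene, had 9.45 ± 0.532 and 24.1 ± 1.10. SNRPD2, an Sm ring subunit, had 10.5 ± 0.782-fold ETS1, and LSM5 23.6 ± 0.151-fold RUNX1. Of 18 assembly and transport genes, 4 had ETS1 and 11 RUNX1, led by PRMT5, the methyltransferase that modifies Sm proteins (5.66 ± 0.767 and 15.7 ± 2.04). SNUPN, the import adaptor, had 4.92 ± 0.135 and 9.61 ± 0.868, NCBP1 had 4.74 ± 0.178-fold ETS1, and COIL, the Cajal body protein gene, had 10.9 ± 1.03-fold RUNX1. Of 6 genes of 7SK partners, 5 had ETS1 and all 6 had RUNX1. HEXIM1, the P-TEFb inhibitor, had 15.7 ± 0.445-fold ETS1 and 12.2 ± 0.622-fold RUNX1, CDK9, the P-TEFb kinase, 10.5 ± 1.19 and 41.8 ± 2.30, MEPCE 7.01 ± 0.284-fold ETS1, and CCNT1 18.1 ± 0.504-fold RUNX1.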

How the data were processed

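The submitters' processing notes name bcl2fastq 2.17, MACS3 3.0.0a6, Bowtie2 without a version, and build hg38. The authors made 1 peak list for each library against IgG, as the labels of the lists say. Each deposited list holds, for a peak, the fold over IgG as a ratio, its p and its q value as −log10, its summit, and a score that was not used. Read filters and the threshold for a call are not given in the sources; no −log10 q was under 5.00.

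Here, peaks of an antibody that touched were merged, and regions with a peak of both libraries were kept. The fold of a gene is that of its region with the highest mean fold, which is its strongest peak per library; with several regions, the others are given apart. The pileup k was solved from fold = (k + 1)/(expectation + 1) and the Poisson −log10 p, with a tolerance of 0.01, for 100% of peaks, and the solution was tested on simulated data. Protein-coding genes were counted by windows of 1 kb at both ends, short RNA genes by the gene and 1 kb around it. Gene and promoter tables are RefSeq, GRCh38.p14; the promoter table was matched by position, and snRNA promoters were not analysed here. The members and lists were chosen with earlier results of these data known. Genes named were those with an ETS1 region, the 15 highest and 5 lowest RUNX1 folds, separate genes with a region, single-copy types, and the 3 highest folds of each factor per list. Python 3.11.15, pandas 2.3.3, numpy 2.4.6 and scipy 1.17.1 were used.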

Additional observations from a re-analysis of the deposited data

How the results depend on the processing

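The counts of snRNA genes with ETS1 (30), RUNX1 (39) or both (30), and of separate genes with ETS1 (24) or RUNX1 (30), stayed within 1.5 times under a window of 250 bp or 5 kb, summits in place of regions, a peak of either library, −log10 q of at least 20, equal numbers of peaks (5611), each library alone and, for separate genes, a distance of 5 kb from coding ends. Single libraries gave 31 to 32, 40, 31 to 32, 24 to 25 and 31. With equal numbers of peaks, ETS1 was at 30 and RUNX1 at 28 genes. Without RNU2-1 and the LOC genes beside it, a setting added after the data were examined, 15 separate genes had ETS1. The median fold over genes with ETS1 (11.8) was 11.2 with each region once, 13.8 at −log10 q of at least 20 and 11.95 to 11.97 in single libraries, and that with RUNX1 (23.2) was 22.2 with each region once, 23.8 at −log10 q of at least 20 and 22.4 to 22.6 in single libraries. No paired analysis was possible because the results come from no test. Depth is unknown, and a gene without a region may hold signal below the call threshold or in reads lost to near-identical copies.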
